A study of Triticum aestivum with 2 samples.

Results

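The Wheat Genome Array carries 49 probe sets that the study listed as hybridizing in its antisense assay alone and for which it found no function. They come from 61115 wheat probe sets in all, and the study's list of antisense-specific probe sets holds 80, of which the other 31 have a putative function. In that list 46 of the 49 are called unknown and 3 hypothetical protein. By their names the 49 stem from 43 design sequences in 37 design clusters, a design cluster being the group of sequences that share the name up to the second dot. They were chosen by the study on their measured values and Present calls on the same arrays described here, above a threshold in the antisense assay and not in the sense assay. Their signals below are therefore a description, with no test. The names of the probe sets were not part of that choice, whereas the other probe sets of a cluster were sorted into or out of the study's lists by the same criteria.

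RNA of the wheat line 'Chinese Spring' came from germinated seed kept in the dark, young shoots, flag leaves, and spikes collected before and after anthesis, all but the seed from greenhouse plants. The RNA of the 5 tissues was pooled in equal amounts and hybridized to 2 arrays. The 3'IVT assay, primed with oligo(dT), labelled the complement of the mRNA and was used for sense transcription, and the WT assay, primed at random, labelled the opposite strand and was used for antisense transcription. Each assay was run once on the pool, so the values carry no replicate error, no tissue can be told from another, and levels were not compared between the assays.

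Antisense transcripts are copied from the strand opposite to a gene and can pair with its mRNA. In plants they are known from the nuclear genome and from the plastid genome, where genes lie close together on both strands and are often transcribed as long units that run past a gene's end. On this array the letter S or A in a probe set's name gives the orientation of the design sequence as sense or antisense. Where an A is right, the WT assay reads the sense strand at these probes. Whether the orientation given by a name is right was not tested. The suffix _at marks probes unique to a transcript, whereas _s_at and _x_at mark probes shared between similar transcripts.

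The lowest of 9 probe sets for bioB, a bacterial gene spiked in near the detection limit, set the threshold of each array, at log2 signals of 9.69 (3'IVT) and 15.19 (WT). Below, a pair of values for a probe set is its log2 signal, 3'IVT first and WT second. Probe sets for the same region of a spiked control had an SD of 0.32 (3'IVT) and 0.26 (WT) log2 units, over 9 regions with 27 probe sets. The 4 leaf markers checked, among them the RUBISCO small subunit and carbonic anhydrase, had 3'IVT log2 signals of 14.17 to 15.57, all above the threshold. Their functions are all among the study's sense-antisense pairs, which had to exceed bioB in the 3'IVT assay. That choice largely fixed this outcome, which is therefore a weak check of the RNA. No grain marker was found by the gene symbols and synonyms of the annotation, so grain was not checked. Of 16 wheat housekeeping probe sets 7 exceeded the 3'IVT threshold. All those for elongation factor and GAPDH were under it, with log2 signals of 3.60 to 7.63. The signal of a probe set depends also on its probe sequences, so an order of signals is not an order of transcript abundance.

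The 49 probe sets of unknown function had WT log2 signals of 14.99 to 19.63, with a median of 16.81. Their 3'IVT log2 signals were 2.71 to 10.76, with a median of 7.80. Relative to the bioB thresholds the medians were 1.63 (WT) and -1.89 (3'IVT) log2 units. Above the WT threshold alone were 41 of the 49 (83.7%), 6 were above both thresholds, 2 above neither and 0 above the 3'IVT threshold alone. Over all wheat probe sets 0.159% were above the WT threshold alone and 0.208% above both, but the members were chosen for this pattern. The study applied RMA summaries and Present calls, whereas the deposited signals are MAS5 values, and the part of this in the 8 that fell elsewhere was not tested.

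**Figure D1:**
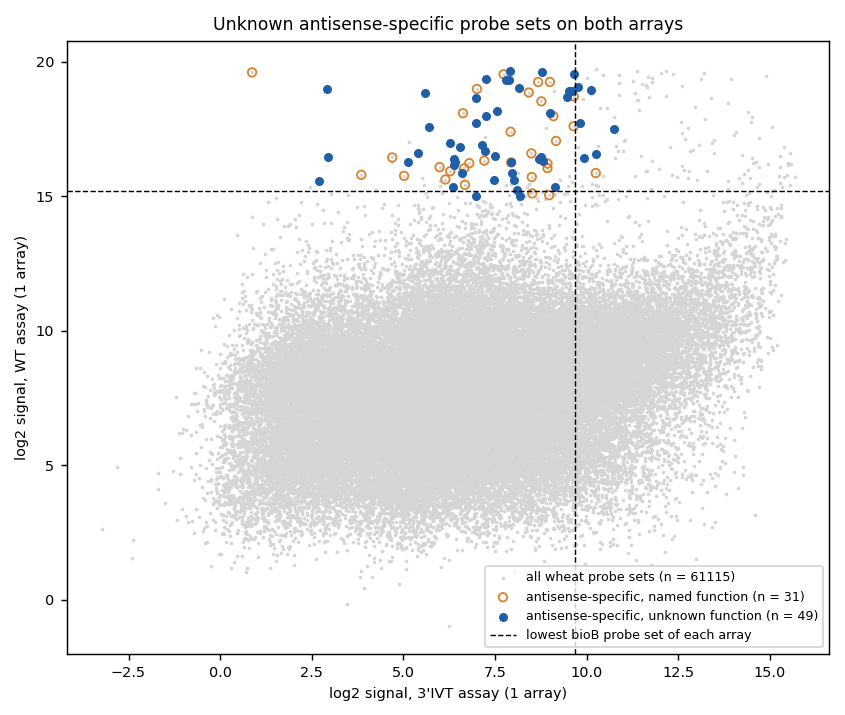
Each point is a probe set, with its log2 signal in the 3'IVT assay on the x axis and in the WT assay on the y axis; dashed lines mark the lowest bioB probe set (9.69 and 15.19). The 49 unknown antisense-specific probe sets (blue) lie between 14.99 and 19.63 in the WT assay, as do the 31 with a named function (orange rings), above the body of the 61115 wheat probe sets (grey).

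Of the 49, 35 had a 3'IVT signal above the median of the array (log2 6.63), and 32 (65.3%) exceeded the brightest of 63 reporter probe sets (log2 7.02), whose genes are foreign to wheat. Of all wheat probe sets 44.9% did so. The 3'IVT signal was also used to choose the members, so this difference is a description and no result. A further reporter probe set was left out because its signals lay in the range of the spiked control creX. In 10 members the 3'IVT signal was within 1 log2 unit under the threshold, and in 14 it was more than 3 under it. The median of all wheat probe sets was -3.07 log2 units relative to that threshold. Members had to miss the study's 3'IVT criterion, which shapes these counts. On the WT array all 49 exceeded the brightest reporter gene (log2 11.76), which 1991 of the 61115 probe sets did. By WT signal 4 of the 49 were among the 20 brightest wheat probe sets of the array, 14 among the 50 brightest and 24 among the 100 brightest. Only 224 of the 61115 were above the WT threshold, which itself lies above the reporter genes. Both the ranks and the reporter count on the WT array therefore follow largely from how the members were chosen.

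**Figure D2:**
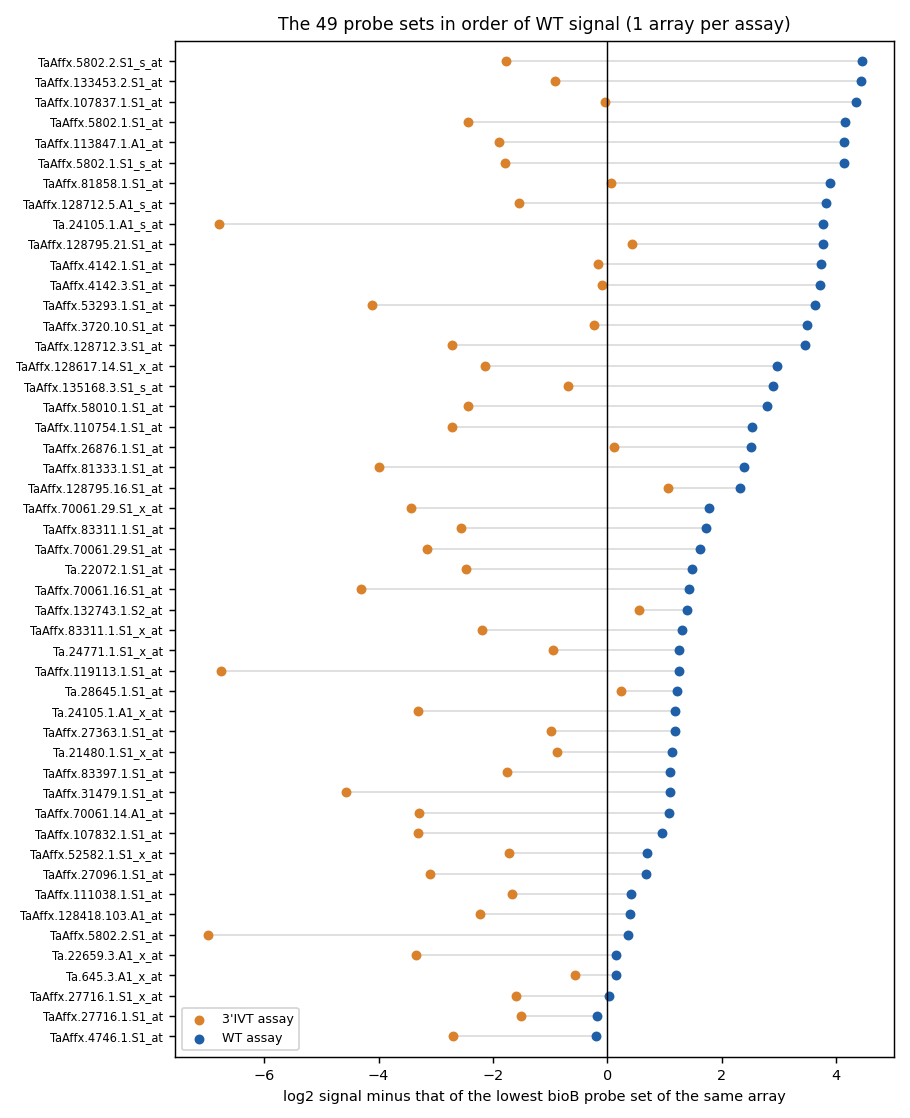
The 49 probe sets in order of WT signal, with log2 signal minus that of the lowest bioB probe set of the same array on the x axis (orange, 3'IVT; blue, WT; 1 array each). The WT values run from 4.44 down to -0.19, and the 3'IVT values from 1.06 to -6.98 without following that order.

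Of the 37 design clusters 6 held a probe set with a named function, and in 5 of these 6 the function was that of a plastid protein. The 6 clusters held 8 members. The functions were all in the study's list of sense-antisense pairs and none in its list of antisense-specific probe sets. The paper reports that energy production, photosynthesis in particular, is over-represented among its pairs, which also hold many ribosomal proteins. The plastid count was not compared with the share in that list of pairs, nor the count of 6 clusters with a share over the array. Chloroplast ribosomal proteins S7, S12, S15 and S16, photosystem II proteins K and Z, a chain of the plastid NAD(P)H-quinone oxidoreductase and a putative senescence-associated protein were named. The 8 members had a median of 3.47 log2 units over the WT threshold and stood at -0.89 relative to the 3'IVT threshold. The 21 members in the other 11 clusters with several probe sets had medians of 1.73 and -2.19, and the 20 members alone in their cluster 1.23 and -2.10. These medians were set side by side without a test, and a shared cluster name does not make a member a transcript of the named gene.

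Chloroplast ribosomal protein S16, a protein of the small subunit of the plastid ribosome, stands in cluster TaAffx.4142 with 2 members. TaAffx.4142.1.S1_at had log2 signals of 9.52 (3'IVT) and 18.92 (WT), and TaAffx.4142.3.S1_at had 9.60 and 18.90. Relative to the 3'IVT threshold they stood at -0.17 and -0.09 log2 units, nearer than the SD between control probe sets. The S16 probe set itself, TaAffx.4142.2.S1_at, had 10.44 and 15.74, above both thresholds and with a lower WT signal than either member. The other 2 probe sets of the cluster were unlisted and low, with TaAffx.4142.4.S1_at at 4.62 and 2.87 and TaAffx.4142.4.S1_x_at at 7.07 and 8.59.

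Cluster TaAffx.3720 holds S7 and S12, ribosomal proteins whose genes neighbour each other in plastid genomes. Its member TaAffx.3720.10.S1_at had log2 signals of 9.46 (3'IVT) and 18.67 (WT). The 2 probe sets for S12, TaAffx.3720.2.S1_at (10.13 and 18.79) and TaAffx.3720.5.S1_at (10.87 and 18.74), were also bright in the WT assay. The 2 for S7 had 15.68 and 15.72 (TaAffx.3720.1.S1_at) and 15.26 and 15.75 (TaAffx.3720.4.S1_s_at). All 4 were above both thresholds, while the member stood at -0.23 log2 units relative to the 3'IVT threshold.

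The member of cluster TaAffx.128617, TaAffx.128617.14.S1_x_at, had log2 signals of 7.55 (3'IVT) and 18.14 (WT). Chloroplast ribosomal protein S15 was read by 4 probe sets of the cluster, with WT signals of 17.93 to 19.56, a range that holds the member. Their 3'IVT signals were 10.74 to 13.20, all above that of the member. Chain 5 of the NAD(P)H-quinone oxidoreductase, a subunit of a plastid complex of cyclic electron flow, had 12.78 and 17.52 at TaAffx.128617.1.S1_x_at. The remaining 7 probe sets of the cluster were unlisted and none was above the WT threshold.

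Photosystem II protein Z, a small subunit of the complex that oxidizes water, lies in cluster TaAffx.128712 with 2 members of opposite orientation. The S-lettered TaAffx.128712.3.S1_at had log2 signals of 6.98 (3'IVT) and 18.65 (WT). The A-lettered TaAffx.128712.5.A1_s_at had 8.15 and 19.00, so both letters were bright in the WT assay and under the threshold in the 3'IVT assay. Protein Z itself had 15.49 and 16.15 (TaAffx.128712.18.S1_s_at), and the hypothetical protein TaAffx.128712.4.S1_x_at, the brightest of the cluster in the 3'IVT assay, 15.56 and 15.40. The brightest of the cluster in the WT assay was another hypothetical protein of the list of pairs, TaAffx.128712.19.S1_s_at, with 10.89 and 19.19.

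Photosystem II protein K, another small subunit of that complex, gave the only case in which a member and a named function share a design sequence. TaAffx.132743.1.S2_at is a second probe set for the sequence of TaAffx.132743.1.S1_at, the protein K precursor. The member had log2 signals of 10.25 (3'IVT) and 16.57 (WT), above both thresholds, and the protein K probe set had 12.35 and 19.52. The second set was thus lower by 2.10 (3'IVT) and 2.95 (WT) log2 units. The unknown pair TaAffx.132743.10.S1_at of the same cluster had 11.50 and 19.18.

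The 8th of these members, TaAffx.128418.103.A1_at, a hypothetical protein, was less bright, with log2 signals of 7.47 (3'IVT) and 15.58 (WT), 0.39 over the WT threshold. It is the only one of the 49 for which the platform annotation gives a gene, LOC543498, whose role the annotation does not state. Its cluster is by far the largest, with 113 probe sets, and covers more than 1 gene, since its 6 probe sets with annotation name 5 genes. In this cluster 19 probe sets were above the 3'IVT threshold and 9 above the WT threshold. The putative senescence-associated protein TaAffx.128418.24.S1_at had 13.12 and 19.36. The highest WT signal of the cluster was at TaAffx.128418.104.A1_s_at (14.90 and 19.47) and the highest 3'IVT signal at TaAffx.128418.16.S1_x_at (15.05 and 17.58), both hypothetical proteins in the list of pairs. The unlisted TaAffx.128418.104.A1_x_at, named after its values were seen, had 9.51 and 15.76 and was also above the WT threshold alone.

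Clusters of unknown function alone contributed the brightest members. TaAffx.5802 held 4 members from 2 design sequences, and no probe set of it was above the 3'IVT threshold. TaAffx.5802.2.S1_s_at had log2 signals of 7.92 (3'IVT) and 19.63 (WT), the 4th brightest wheat probe set of the WT array. TaAffx.5802.1.S1_at (7.26 and 19.34) and TaAffx.5802.1.S1_s_at (7.89 and 19.32) were close to it in both assays. The 4th member, TaAffx.5802.2.S1_at, had the lowest 3'IVT signal of the 49 (2.71) and a WT signal of 15.54, only 0.36 over the threshold. The 5th probe set of the cluster, TaAffx.5802.3.S1_at, was unlisted and had 4.86 and 8.19.

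TaAffx.70061 also held 4 members, and again 0 of its 22 probe sets was above the 3'IVT threshold. TaAffx.70061.29.S1_x_at had log2 signals of 6.27 (3'IVT) and 16.97 (WT), and TaAffx.70061.29.S1_at had 6.53 and 16.81. TaAffx.70061.16.S1_at had 5.39 and 16.61, and the A-lettered TaAffx.70061.14.A1_at 6.40 and 16.26. The 4 spanned 0.71 log2 units on the WT array. Of the 22 probe sets 21 were S-lettered, so the A-lettered member was the only one of its kind there. Below the members, the WT signals of the other 18 ran from 5.59 to 14.70 at TaAffx.70061.17.S1_at, with a median of 9.96. Of these 18, 17 were above the WT median of the array (8.01) and 6 had a log2 signal over 12. The 3'IVT signals of the cluster had a median of 6.42, near that of the array, and did not exceed 7.99.

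The 2 members of TaAffx.128795 were above both thresholds, although the study listed them as antisense-specific. TaAffx.128795.16.S1_at had log2 signals of 10.76 (3'IVT) and 17.51 (WT), the highest 3'IVT signal of the 49, and TaAffx.128795.21.S1_at had 10.13 and 18.95. A probe set of the latter's sequence, TaAffx.128795.21.S1_s_at, is an unknown of the list of pairs with 11.37 and 19.64, above the member in both assays. The other 2 unknown pairs of the cluster, TaAffx.128795.12.S1_x_at (14.58 and 16.24) and TaAffx.128795.10.S1_x_at (14.50 and 16.40), had higher 3'IVT and lower WT signals than the members.

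In several clusters a probe set outside the study's lists was bright in the 3'IVT assay beside a member that was not. TaAffx.135168.3.S1_s_at had log2 signals of 9.00 (3'IVT) and 18.09 (WT), against 14.00 and 14.50 at TaAffx.135168.1.S1_at and 12.47 and 15.72 at TaAffx.135168.7.S1_at, which was above both thresholds and in neither list. TaAffx.133453.2.S1_at had 8.78 and 19.62, the 5th brightest WT signal among the wheat probe sets of the array. Its only cluster mate, the A-lettered TaAffx.133453.3.A1_at, had 9.82 and 9.67, just above the 3'IVT threshold and at -5.52 log2 units relative to that of the WT assay. In this pair the 2 orientations came from different design sequences.

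The A-lettered members of 3 small clusters stood beside S-lettered probe sets that were above the 3'IVT threshold. TaAffx.113847.1.A1_at had log2 signals of 7.80 (3'IVT) and 19.32 (WT), and TaAffx.113847.1.S1_at, from the same design sequence in the other orientation, had 10.85 and 14.88. This was the only member for which the array holds an S probe set of its own sequence. The A-lettered set was above the WT threshold alone and the S-lettered set above the 3'IVT threshold alone. Ta.22659.3.A1_x_at, a hypothetical protein, had 6.34 and 15.33, against 12.83 and 10.37 at Ta.22659.1.S1_at. Not every probe set of these clusters followed its letter, since the A-lettered Ta.22659.2.A1_at was above the 3'IVT threshold alone (10.23 and 14.72) and the S-lettered TaAffx.113847.2.S1_at above neither threshold (7.97 and 11.41). Ta.645.3.A1_x_at had 9.13 and 15.33, against 13.36 and 11.87 at Ta.645.1.S1_x_at. Both of these members were only 0.14 log2 units over the WT threshold, less than the SD between control probe sets.

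**Figure D3:**
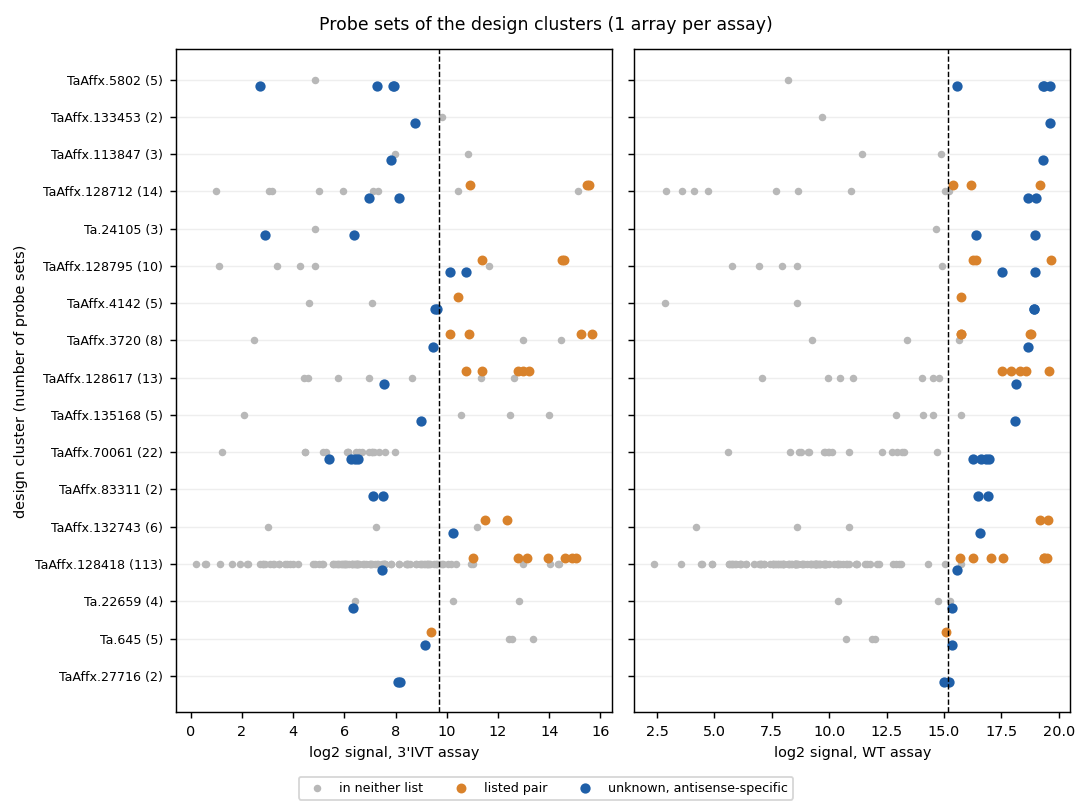
Log2 signals of every probe set in the 17 design clusters that hold a member and at least 1 more probe set, in the 3'IVT assay (left) and the WT assay (right), with the members in blue, listed pairs in orange and probe sets in neither list in grey; dashed lines mark the lowest bioB probe set. In 11 cases a member, chosen for its high WT signal, is the rightmost point of its cluster in the WT panel. There are 5 clusters, among them TaAffx.5802 and TaAffx.70061, with no point to the right of the 3'IVT line.

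The remaining clusters with several probe sets had 1 design sequence each and no probe set above the 3'IVT threshold. Ta.24105 held 2 A-lettered members, Ta.24105.1.A1_s_at with log2 signals of 2.90 (3'IVT) and 18.96 (WT) and Ta.24105.1.A1_x_at with 6.38 and 16.38, beside the unlisted Ta.24105.1.A1_at with 4.86 and 14.66. These 3 sets for 1 sequence spanned 4.31 log2 units in the WT assay. Both probe sets of TaAffx.83311 were members, TaAffx.83311.1.S1_at with 7.14 and 16.91 and TaAffx.83311.1.S1_x_at with 7.51 and 16.48, and differed by 0.43 in the WT assay.

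Over the 17 clusters with several probe sets, the 193 probe sets that are not members had a median WT log2 signal of 9.67 and a median 3'IVT log2 signal of 7.17. The medians of the array were 8.01 and 6.63. Of the 193, 26 were in the list of pairs, and 25 of these exceeded both thresholds, for which they had been chosen. The 167 in neither list had each missed a criterion of the study's lists, which bears on their WT counts. Of these, 30 (17.96%) were above the 3'IVT threshold and 5 (2.99%) above the WT threshold. On the whole array 17.3% were above the 3'IVT threshold and 0.367% above the WT threshold. Outside the large cluster TaAffx.128418, 62 unlisted probe sets remained, of which 18 (29.0%) were above the 3'IVT threshold and 4 (6.45%) above the WT threshold. Probe sets of a cluster share sequence and are not independent, and these shares rest on few clusters.

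Of the 29 members with another probe set in their cluster, 15 (51.7%) had at least 1 such set above the 3'IVT threshold. Over all wheat probe sets with another in their cluster the share was 39.7%. Of the 19 antisense-specific probe sets with a named function and a cluster mate, 18 had such a mate. A larger cluster makes such a mate likelier, and mates in the list of pairs were chosen for it. Cluster size was not taken into account, so the differences between these shares are a description. The 15 members of unknown function lay in 12 clusters. In TaAffx.135168, TaAffx.133453, TaAffx.113847, Ta.22659 and Ta.645 the probe sets above the 3'IVT threshold were all unlisted. Ta.645 also holds a listed pair of the member's own sequence, Ta.645.3.A1_at, which had 9.39 and 15.08 and was above neither threshold. With only probe sets of the same design sequence counted, 3 members remained, those of TaAffx.113847.1, TaAffx.128795.21 and TaAffx.132743.1. In 11 cases a member had the highest WT signal of a cluster with several probe sets.

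The 20 members that are alone in their design cluster all carried the letter S, and neither an opposite orientation nor a neighbouring sequence of the same cluster was on the array for them. Their WT log2 signals were 14.99 to 19.52, with a median of 16.42, and their 3'IVT log2 signals 2.94 to 9.92. The brightest in the WT assay was TaAffx.107837.1.S1_at, with 9.65 and 19.52, which is -0.04 log2 units relative to the 3'IVT threshold. TaAffx.53293.1.S1_at (5.58 and 18.81), TaAffx.58010.1.S1_at (7.25 and 17.98), TaAffx.110754.1.S1_at (6.97 and 17.71) and lastly TaAffx.81333.1.S1_at (5.70 and 17.57) followed among those above the WT threshold alone. All of these lay more than 2 log2 units over the WT threshold.

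Close to the median of the lone members, with WT log2 signals of 16.14 to 16.66, were Ta.22072.1.S1_at, Ta.24771.1.S1_x_at, TaAffx.119113.1.S1_at, Ta.28645.1.S1_at, TaAffx.27363.1.S1_at, Ta.21480.1.S1_x_at, TaAffx.83397.1.S1_at, TaAffx.31479.1.S1_at and TaAffx.107832.1.S1_at. Their 3'IVT log2 signals ran from 2.94 at TaAffx.119113.1.S1_at and 5.12 at TaAffx.31479.1.S1_at to 8.81 at Ta.21480.1.S1_x_at and 9.92 at Ta.28645.1.S1_at. The 3'IVT signals of the other 5 lay between 6.39 and 8.75. Dimmer in the WT assay were TaAffx.52582.1.S1_x_at (7.97 and 15.87), TaAffx.27096.1.S1_at (6.59 and 15.87) and, lowest of these, TaAffx.111038.1.S1_at (8.03 and 15.60).

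The 6 members above both thresholds exceeded that of the 3'IVT assay by 1.06 log2 units at most. Beside TaAffx.128795.16.S1_at, TaAffx.128795.21.S1_at and TaAffx.132743.1.S2_at they were the lone members Ta.28645.1.S1_at (9.92 and 16.40), TaAffx.26876.1.S1_at (9.81 and 17.70) and, brighter in the WT assay, TaAffx.81858.1.S1_at (9.75 and 19.07). The last 3 lay 0.06 to 0.23 log2 units over the 3'IVT threshold, less than the SD of 0.32 between control probe sets. The 2 members above neither threshold were also close to it. TaAffx.4746.1.S1_at, a hypothetical protein, had 6.99 and 14.99, and TaAffx.27716.1.S1_at 8.19 and 15.01, which is -0.19 and -0.18 relative to the WT threshold.

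At the WT threshold itself, the member just inside was TaAffx.27716.1.S1_x_at, with log2 signals of 8.09 (3'IVT) and 15.21 (WT), 0.02 over the threshold. It is the partner of TaAffx.27716.1.S1_at from the same sequence, so this sequence fell on both sides. Just outside among probe sets not above the 3'IVT threshold was TaAffx.6447.1.S1_x_at, which no list holds, with a WT log2 signal of 15.17. In all, 8 members lay within 0.5 log2 units of the WT threshold, 38 more than 1 over it and 15 more than 3 over it.

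By letter, 41 of the 49 were S and 8 were A (16.3%, exact binomial 95% interval 7.32 to 29.7, counting error only). That interval takes the 49 as independent, which probe sets of 1 cluster are not, so it is a description and no test. The share of A over the array was 17.4%. Among the 31 antisense-specific probe sets with a named function 12 (38.7%) were A, and among the 34 unknown probe sets in the list of pairs 5 (14.7%). The 8 A-lettered members had medians of 1.13 log2 units over the WT threshold and -2.76 relative to the 3'IVT threshold, against 1.73 and -1.77 for the 41 S-lettered members. An S-lettered probe set was in the cluster of 6 of the 8, and for 5 of these an S-lettered set was above the 3'IVT threshold. They were the members of TaAffx.113847, TaAffx.128712, TaAffx.128418, Ta.22659 and Ta.645, whereas in TaAffx.70061 none of the 21 S-lettered sets was, and Ta.24105 had none. TaAffx.128418 and TaAffx.128712 hold 113 and 14 probe sets, which makes such a set likelier there. Of the 21 S-lettered members with any cluster mate, of either letter, 9 had another S-lettered set above the 3'IVT threshold. These counts by letter have unlike bases, and neither was compared with a share over the array. The difference between the letters was not tested and rests on few clusters.

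By suffix, 34 of the 49 were unique (_at), 10 were _x_at and 5 were _s_at, so that 15 (30.6%) are shared between transcripts. On the array 15.4% were _s_at or _x_at, and 20.8% with the suffix _a_at, which marks transcripts of 1 gene family and which no member carries. Medians over the WT threshold were 1.68 log2 units for the unique and 1.29 for the shared members, and relative to the 3'IVT threshold -2.33 and -1.77. Only 3 of the 8 A-lettered members were unique, TaAffx.113847.1.A1_at, TaAffx.70061.14.A1_at and TaAffx.128418.103.A1_at. The prefix TaAffx, in place of Ta, was found in 41 of the 49 (83.7%), in 48.6% of the array, in 20 of the 31 with a named function (64.5%) and in 28 of the 34 unknown pairs (82.4%).

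Probe sets for 1 design sequence in 1 orientation gave a view of how far a signal depends on the choice of probes. The members offered 12 such pairs from 10 sequences. In some of them both sets were members, and in others the second set was in the list of pairs. Both sets were then chosen for a high WT signal, which limits their difference in that assay. Their WT median is therefore not comparable with that of the array. They differed by a median of 0.94 (3'IVT) and 0.56 (WT) log2 units, and in the WT assay 6 pairs differed by less than 0.5 and 4 by more than 2. TaAffx.5802.1 was the closest in the WT assay, with 0.02 between its sets, and TaAffx.5802.2 among the farthest, with 5.21 (3'IVT) and 4.09 (WT). Within Ta.24105.1 the sets differed by 1.72 to 4.31 in the WT assay. Over the array 6193 such pairs had medians of 0.93 (3'IVT) and 1.32 (WT), and 34.7% of them differed by more than 2 in the WT assay. For the 34 pairs with at least 1 set above the WT threshold the medians were 1.58 and 2.15.

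**Figure D4:**
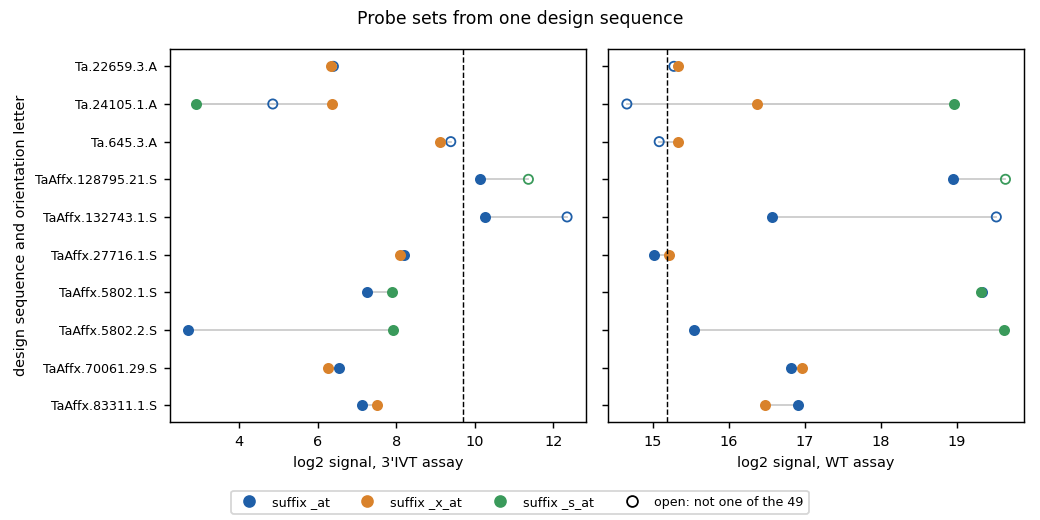
Log2 signals of probe sets from the same design sequence in the same orientation, in the 3'IVT assay (left) and the WT assay (right), for the 10 sequences with a member; colours give the suffix, open circles probe sets outside the 49, and dashed lines the lowest bioB probe set. Sets of TaAffx.5802.1 lie within 0.02 of each other in the WT assay, while those of TaAffx.5802.2 lie 4.09 apart.

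Beside the parts of the study's lists most like them, the 49 had a median WT log2 signal of 16.81, the 31 antisense-specific probe sets with a named function 16.31, and the 34 unknown pairs 17.31. The median 3'IVT log2 signals were 7.80, 7.94 and 12.63. The 2 antisense-specific groups were chosen by the same criteria on both assays, so their like medians are no result about function. The unknown pairs had a higher 3'IVT median by their choice. Alone in their design cluster were 20 of the 49 (40.8%), 12 of the 31 (38.7%) and 5 of the 34 (14.7%), and 60.2% of the array. With 1 array per assay no test of these differences was made.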

How the data were processed

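Per the labels, the authors used MAS5 to make the deposited signal intensity of each probe set, on a linear scale. MAS5 corrects for background and mismatch probes and scales every array separately, here to 2% trimmed means of 500.3 (3'IVT) and 500.2 (WT). The study's lists rest on RMA summaries with Present calls, which were not recomputed. The log2 of each intensity was taken with no pseudocount and no normalization between arrays. Affymetrix controls (111 probe sets) and reporter genes (64) were left out of counts.

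The members, their categories and the putative functions were copied from the study's lists, and were chosen with earlier results of these data known. Design clusters and sequences were read from probe set names. With 1 array per assay counts, medians and ranges are given without a test, and array number limits the precision. The counting steps were tested on simulated data. Values in full were planned for the 10 brightest WT members, the 5 highest and 5 lowest 3'IVT members, members not above the WT threshold alone, those nearest the WT threshold, members of clusters or sequences with 2 or more, A-lettered and hypothetical members, and the one with an annotated gene. Of other probe sets, the brightest of each cluster in each assay, those of the same sequence and those with a named function were planned. Other members and cluster mates were named after their values were seen. The platform annotation names a gene for 1273 wheat probe sets, and 1 of the 49. Alternatives were other thresholds, a pseudocount of 32, quantile normalization, and leaving out shared, repeated, hypothetical or low 3'IVT members. Python (version 3.11.15) was used, with scipy 1.17.1, numpy 2.4.6 and pandas 2.3.3 for values and matplotlib 3.10.9 for figures.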

Additional observations from a re-analysis of the deposited data

How the results depend on the processing

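The 41 members above the WT threshold alone became 26 with the highest bioB probe set as threshold, 17 with the highest reporter gene, 26 of 34 without shared probe sets and 27 of 35 without members under the 3'IVT median of the array, where fewer members were counted. The 6 above both thresholds became 2 with the median and 1 with the highest bioB probe set, and 32 with the highest reporter gene. The median of 1.63 log2 units over the WT threshold became 0.67, 0.22 and 5.05 with these 3 thresholds, 1.00 after quantile normalization and 2.51 without members under the 3'IVT median. The median of -1.89 in the 3'IVT assay became -2.33, -2.73 and, with its sign turned, 0.78 with these thresholds, -1.47 after quantile normalization, -2.33 without shared probe sets and -1.54 without members under the 3'IVT median. With the same design sequence alone, the 15 members with another probe set of the cluster above the 3'IVT threshold became 3, and the 8 whose cluster holds a named function became 1. With the antisense-specific list alone as source of functions they became 0. The pseudocount of 32, counting each design cluster once and leaving out hypothetical proteins kept the counts of members above the WT threshold alone and above both within 1.5 times, and the medians in both assays within the spread between control probe sets. For the counts by cluster mate and by named function these 3 alternatives were not run. The share of A-lettered members went from 16.3% to 8.82% without shared probe sets and was 16.2% with each cluster once. Both lie inside its descriptive interval, but that interval is wide and comes from the same 49, so this is a weak check. No paired analysis was possible because each assay has 1 array. Members within 0.32 log2 units of the 3'IVT threshold, or 0.26 of the WT threshold, lay nearer to it than the SD between control probe sets. Their side of it is uncertain. That SD is no replicate error, so the side of members farther off is not thereby certain. Wheat probe sets for 1 design sequence differed by medians of 0.93 (3'IVT) and 1.32 (WT) log2 units over the array.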
